A study of Mus musculus with 12 samples.

Results

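The 10 genes described here are used across vascular beds to recognise endothelial cells: Pecam1, Cdh5, Esam, Cldn5, Emcn, Ecscr, Robo4, Erg, Egfl7 and Vwf. They were chosen by name as endothelial identity genes and make up 10 of the 19547 genes in the deposited table. All 10 passed the filter on low counts, as did 18551 genes in all. Their RNA was measured in 12 libraries from mouse fat grafts, 4 in each of 3 groups. Every graft library is labelled as adipose tissue of wild type C57BL/6 mice aged 16 weeks, collected 8 weeks after grafting. Control grafts carry no further label. Grafts of the group named CAL, for cell-assisted lipotransfer, had ASC added to the fat, an abbreviation generally used for stem or stromal cells taken from adipose tissue. The CAL_Dll4i group had ASC added together with inhibition of Dll4, a Notch ligand of endothelial cells; the sources used here give neither the agent nor its dose. Whether the libraries of a group are separate animals is not stated in the labels, and p-values therefore rest on the spread between these libraries, which may be partly technical.

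Endothelial cells line all blood and lymph vessels and hold to one another through adherens and tight junctions. Cdh5, Esam and Cldn5 encode proteins of those junctions, and Pecam1 encodes an adhesion molecule of the cell borders. Emcn, Ecscr and Robo4 encode surface proteins, Egfl7 and Vwf encode secreted ones, and Erg encodes a transcription factor of the ETS family that is known to maintain endothelial genes. Genes of this kind are commonly used to judge how much endothelium a tissue sample holds. In bulk RNA, fewer endothelial cells and less of these RNAs per endothelial cell cannot be told apart.

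Erg and its relatives bind DNA at a GGAA core, so the starts of the genes were searched for it. RefSeq promoter sequences (GRCm38.p6) were at hand for 5 of the 10 genes, in 9 windows: 3 for Egfl7, 3 for Erg and 1 each for Emcn, Robo4 and Cldn5. The 3 sequences below, chosen after their values were seen, range from one with several matches to one with none. Each comes from a window of 250 bases before a RefSeq start, in its gene's direction. It was cut before the first GENCODE M21 exon base of the gene where one lay inside the window. GGAA or its reverse complement TTCC is in capitals. Emcn (chr3:137340828-137341066, plus strand) holds 4 matches, the middle one of the Egfl7 windows (chr2:26583615-26583863, plus strand) holds 3, and Cldn5 (chr16:18776597-18776846, plus strand) holds 0.
Emcn: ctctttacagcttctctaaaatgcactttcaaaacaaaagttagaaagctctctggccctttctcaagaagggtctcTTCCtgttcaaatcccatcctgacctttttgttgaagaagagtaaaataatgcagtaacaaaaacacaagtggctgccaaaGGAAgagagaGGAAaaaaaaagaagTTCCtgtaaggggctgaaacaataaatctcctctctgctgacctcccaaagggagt
Egfl7: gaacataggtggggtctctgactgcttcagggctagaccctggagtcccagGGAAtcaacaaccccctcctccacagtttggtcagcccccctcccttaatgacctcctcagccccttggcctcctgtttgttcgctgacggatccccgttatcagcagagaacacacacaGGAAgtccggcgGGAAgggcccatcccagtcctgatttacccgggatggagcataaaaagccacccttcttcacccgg
Cldn5: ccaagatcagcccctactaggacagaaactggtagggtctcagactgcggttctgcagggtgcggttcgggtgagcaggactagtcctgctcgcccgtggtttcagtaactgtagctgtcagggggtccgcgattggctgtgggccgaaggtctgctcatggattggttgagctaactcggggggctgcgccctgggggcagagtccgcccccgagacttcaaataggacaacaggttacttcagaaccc

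GGAA on either strand was found in 7 of the 9 windows, against 93.4% of the 32851 RefSeq promoters of the same length, 250 bases before the start. The mean was 2.44 matches per window for these genes and 2.91 over all promoters. The longer ETS motif CCGGAAG, searched on both strands and overlapping the core, was in 0 of the 9 windows and in 6.91% of all promoters. By these counts the windows held the core no more often than promoters at large, and a match describes letters, not a bound site.

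Library totals ran from 55883051 to 70804141 counts, and the biological coefficient of variation, the spread between libraries of a group beyond counting noise, was 0.237. For the adipose label, 12 of 12 adipocyte genes were in the table and summed to 956 to 3149 CPM (read counts per unit of library size after TMM scaling) per library. In 3 libraries RNA of skeletal muscle was present as well, read from the 6 of 11 listed muscle genes that were in the table. Their sum stood at 175 CPM in CAL replicate 1, 403 in CAL replicate 2 and 659 in CAL_Dll4i replicate 3. It was at most 17.5 in the other 9 libraries. Estimates that moved by over 1.5 times without these 3 libraries in CAL against control are given with and without them. Keratinocyte genes, 5 of 9 in the table, varied as widely. They summed to 4.46 to 249 CPM in control, 5.25 to 77.3 in CAL and 4.49 to 476 in CAL_Dll4i libraries.

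All 10 genes were well measured, with counts from 150 for Cldn5 in its lowest library to 9586 for Pecam1 in its highest. Per transcript length, on the scale of deposited TPM and averaged over the 12 libraries, Pecam1 stood highest at 89.4 ± 13.4 (SD, n = 12). Emcn at 48.1 ± 11.4, Ecscr at 47.7 ± 13.1 and Cdh5 at 42.8 ± 6.89 followed. Egfl7 at 20.9 ± 3.82, Vwf at 18.9 ± 2.90 and Esam at 17.6 ± 6.35 formed a middle range. Cldn5 at 6.61 ± 2.35, Erg at 6.47 ± 1.25 and Robo4 at 4.91 ± 0.924 were lowest, so that the mean TPM of Pecam1 was 18.2 times that of Robo4. The libraries were made by exon capture, so TPM may also differ between genes by how well each was captured, which was not measured. Within this order Emcn exceeded Ecscr in 4 of 12 libraries and Cldn5 exceeded Erg in 6 of 12, so neither pair was ordered beyond its spread. Pecam1 exceeded Emcn, Cdh5 exceeded Egfl7, Esam exceeded Cldn5 and Erg exceeded Robo4 in all 12.

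The first comparison, CAL against control, asks what added ASC changed. Ecscr and Esam each had about 43% less RNA in CAL grafts than in control grafts, and their 4 CAL libraries lay below all 4 control libraries. The other 8 genes overlapped between the groups, with estimates from 0.30 lower (Erg) to 0.42 higher (Cldn5) on the log2 scale. After Benjamini-Hochberg adjustment over 18551 genes, edgeR's quasi-likelihood test passed 0 of the 10 genes at an adjusted p of 0.05 (0% of all genes were called lower and 0.00539% higher). With p under 0.05 before adjustment, 3 of the 10 were lower (Ecscr, Esam and Cdh5), against 7.57% of all genes, and 0 were higher, against 7.01%. Groups without overlap, lower in CAL, were seen in 2 of 10 genes and in 3.75% of all genes, and groups without overlap, higher in CAL, in 0 of 10 and in 3.61%. DESeq2 called the same 2 genes, Ecscr and Esam, lower (1.62% of all genes it tested) and 0 higher (1.99%). limma voom with sample weights called Ecscr alone lower (0.102%) and 0 higher (0.372%).

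**Figure D1:**
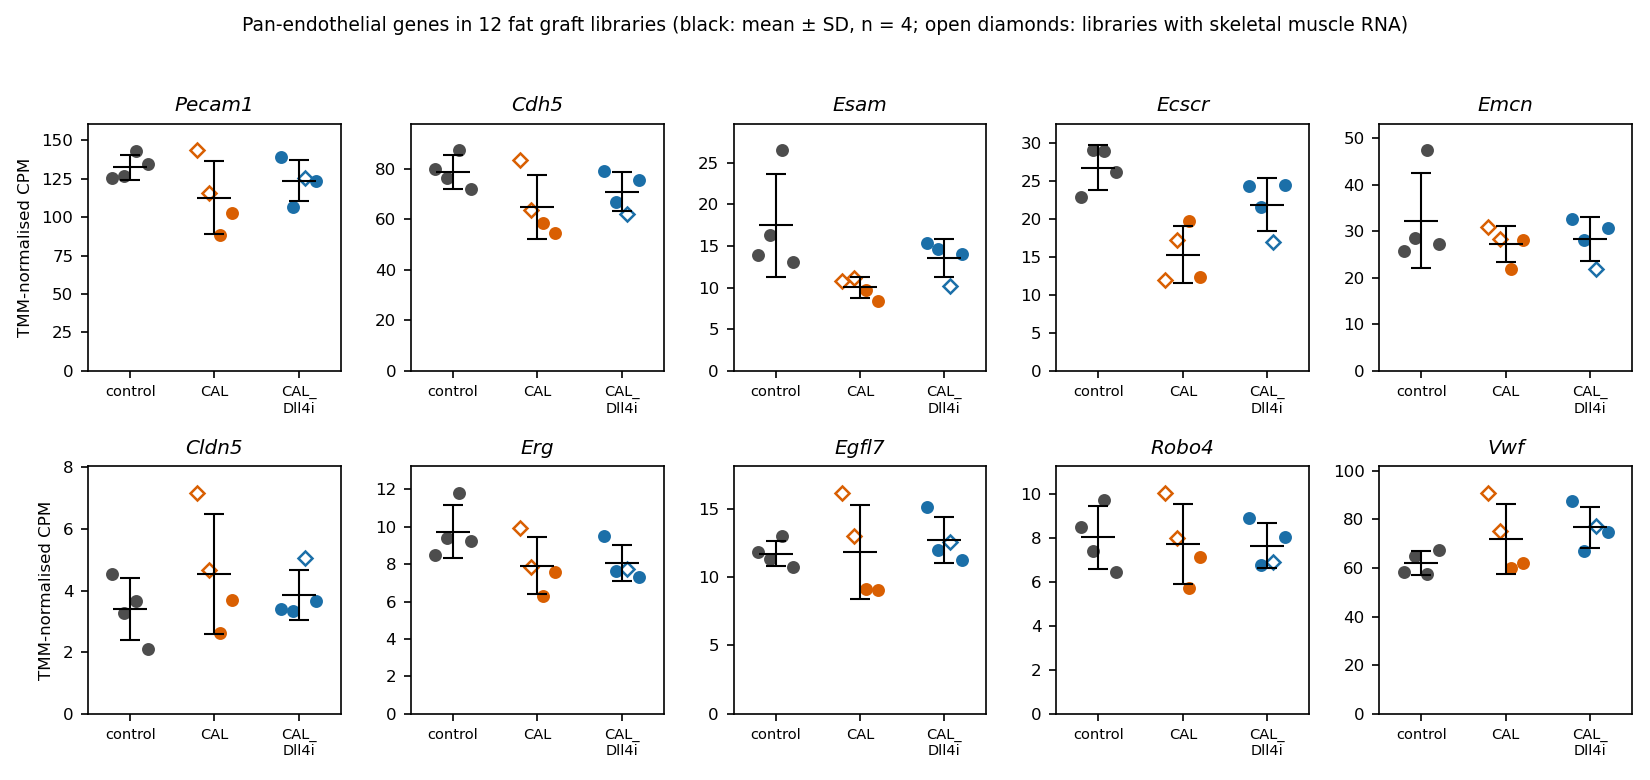
TMM-normalised CPM (vertical axes from 0) of the 10 genes in each library; points are libraries, black bars are the mean ± SD of 4 libraries, and open diamonds are the 3 libraries with skeletal muscle RNA. Ecscr and Esam have all 4 CAL libraries below all 4 control libraries, while the other 8 genes overlap between those groups.

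Among the genes of cell contacts, Pecam1 encodes an adhesion molecule of the immunoglobulin family at endothelial cell borders that leukocytes and platelets also carry. Its level was 126, 127, 143 and 134 CPM in control replicates 1 to 4, 144, 116, 88.7 and 103 in CAL and 139, 107, 126 and 123 in CAL_Dll4i. CAL replicate 1 was the highest and CAL replicate 3 the lowest of all 12 libraries. The group means were 133 ± 8.11 in control and 113 ± 23.5 in CAL (SD, n = 4), a log2 fold change of -0.23 ± 0.13 (SE) with an edgeR adjusted p of 0.423. The estimate was -0.37 without CAL replicate 1, -0.13 without CAL replicate 3 and -0.47 without the 3 muscle libraries (edgeR adjusted p = 0.298).

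Cdh5 encodes VE-cadherin, the adherens junction cadherin of endothelium. It stood at 79.7, 76.1, 87.4 and 71.8 CPM in control, at 83.3, 63.6, 58.5 and 54.5 in CAL and at 79.0, 67.0, 62.1 and 75.6 in CAL_Dll4i. CAL replicates 2 to 4 were below every control library, and CAL replicate 1 was among the controls. The log2 fold change of CAL against control was -0.28 ± 0.12 (edgeR, unadjusted p = 0.046, adjusted p = 0.334). It was -0.42 without CAL replicate 1 and -0.48 without the 3 muscle libraries (edgeR adjusted p = 0.290).

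Esam, an immunoglobulin-family adhesion molecule of endothelial tight junctions that platelets also carry, stood at 14.0, 16.4, 26.5 and 13.1 CPM in control. Its CAL libraries held 10.8, 11.2, 9.75 and 8.42 CPM, and its CAL_Dll4i libraries 15.4, 14.6, 10.2 and 14.1. All 4 CAL libraries were below the lowest control, control replicate 3 was far above the rest, and CAL_Dll4i replicate 3 lay inside the CAL range. The mean was 17.5 ± 6.19 in control and 10.04 ± 1.24 in CAL (SD, n = 4), a log2 fold change of -0.80 ± 0.21 with an adjusted p of 0.175 by edgeR, 0.0168 by DESeq2 and 0.1 by voom. Without control replicate 3 the estimate was -0.53 (edgeR adjusted p = 0.219), so that 1 library moved it by over 1.5 times. The gene lies at chr9:37528089-37538319 on the plus strand, not far downstream of Robo4 at chr9:37401902-37414023 on the same strand (GRCm38.p6), whose estimate was -0.05.

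Cldn5, a claudin that seals endothelial tight junctions, was the most variable of the 10. Its control libraries held 4.53, 3.27, 3.66 and 2.10 CPM, CAL libraries 7.18, 4.67, 2.61 and 3.70 and CAL_Dll4i libraries 3.40, 3.32, 5.04 and 3.65. Its 3 highest libraries, CAL replicate 1, CAL_Dll4i replicate 3 and CAL replicate 2, were the 3 with muscle RNA. The estimate was 0.42 ± 0.30 in CAL against control (edgeR adjusted p = 0.549) with them and -0.10 (adjusted p = 0.941) without them. It was 0.11 without CAL replicate 1 and 0.25 without control replicate 4.

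Of the surface proteins, Ecscr encodes a single-pass membrane protein of endothelium named for roles in chemotaxis and apoptosis. Control libraries held 22.9, 29.1, 28.9 and 26.2 CPM, CAL libraries 11.96, 17.2, 19.7 and 12.3, and CAL_Dll4i libraries 24.4, 21.5, 17.0 and 24.4. Every CAL library lay below every control library, and CAL_Dll4i spanned the gap between them. The means were 26.8 ± 2.92 in control, 15.3 ± 3.79 in CAL and 21.9 ± 3.49 in CAL_Dll4i (SD, n = 4). CAL against control gave a log2 fold change of -0.80 ± 0.17, with an adjusted p of 0.132 by edgeR, 0.0013 by DESeq2 and 0.0436 by voom. The estimate was -0.74 without the libraries with muscle RNA (edgeR adjusted p = 0.320). In the GENCODE M21 annotation the exons of Ecscr are overlapped on the opposite strand by 1700066B19Rik, and the sources used here do not say whether counting used strand, so reads of the 2 genes may not be told apart.

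Emcn encodes endomucin, a sialomucin of capillary and venous endothelium. Its control libraries held 25.7, 28.5, 47.5 and 27.3 CPM, its CAL libraries 31.0, 28.3, 21.8 and 28.0 and its CAL_Dll4i libraries 32.7, 28.1, 21.9 and 30.8. Apart from control replicate 3, the control libraries lay inside the range of the CAL libraries. The log2 fold change in CAL against control was -0.24 ± 0.20 (edgeR adjusted p = 0.607), and it was 0.0072 without control replicate 3, -0.15 without CAL replicate 3 and -0.37 without the muscle libraries. Robo4, a Roundabout family receptor linked to vessel stability, ranged from 6.42 to 9.71 CPM in control, 5.72 to 10.04 in CAL and 6.76 to 8.89 in CAL_Dll4i. The CAL range of Robo4 held the control range within it, and the estimate was -0.05 ± 0.18 (adjusted p = 0.918). With 1 library left out it ran from -0.21 (without CAL replicate 1) to 0.0646 (without CAL replicate 3), and it was -0.32 without the muscle libraries (edgeR adjusted p = 0.650).

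Erg, the transcription factor among the 10, had control libraries at 8.52, 9.41, 11.8 and 9.23 CPM. Its CAL libraries held 9.95, 7.87, 6.28 and 7.59 and its CAL_Dll4i libraries 9.49, 7.64, 7.76 and 7.32. CAL replicates 2 to 4 and CAL_Dll4i replicates 2 to 4 were below all 4 controls, and replicate 1 of each was above the control median. The estimates were -0.30 ± 0.15 in CAL against control (edgeR adjusted p = 0.384) and -0.28 ± 0.15 in CAL_Dll4i against control (adjusted p = 0.722). Without control replicate 3 they were -0.19 and -0.17. Without the muscle libraries CAL against control was -0.49 (edgeR adjusted p = 0.453).

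Egfl7 encodes a secreted matrix protein of endothelium, and its gene hosts the endothelial microRNA miR-126. Its levels were 10.8 to 13.0 CPM in control, 9.09 to 16.2 in CAL and 11.3 to 15.1 in CAL_Dll4i, all overlapping, with an estimate of 0.01 ± 0.17 in CAL against control (adjusted p = 0.982). That estimate was -0.17 without CAL replicate 1 and 0.12 without CAL replicate 3 or CAL replicate 4, and -0.37 without the muscle libraries (edgeR adjusted p = 0.464). Its GENCODE exons are overlapped by Gm20532 on the same strand and by Agpat2, an enzyme gene of triglyceride synthesis, on the opposite strand, so its counts are uncertain to that extent.

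Vwf encodes von Willebrand factor, which endothelial cells store in Weibel-Palade bodies and which platelets also hold. Its group mean was lowest in control, unlike that of most of the 10. The means were 62.1 ± 4.88 CPM for control, 72.0 ± 14.3 for CAL and 76.7 ± 8.44 for CAL_Dll4i grafts (SD, n = 4). Control libraries held 58.4, 64.9, 57.5 and 67.5, CAL libraries 91.0, 75.2, 60.0 and 61.9 and CAL_Dll4i libraries 87.5, 67.1, 77.4 and 74.6. The 2 CAL libraries above all controls were the 2 with muscle RNA. CAL against control gave 0.21 ± 0.13 (edgeR adjusted p = 0.456) with the muscle libraries and -0.03 (adjusted p = 0.965) without them, and 0.08 without CAL replicate 1 alone.

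**Figure D2:**
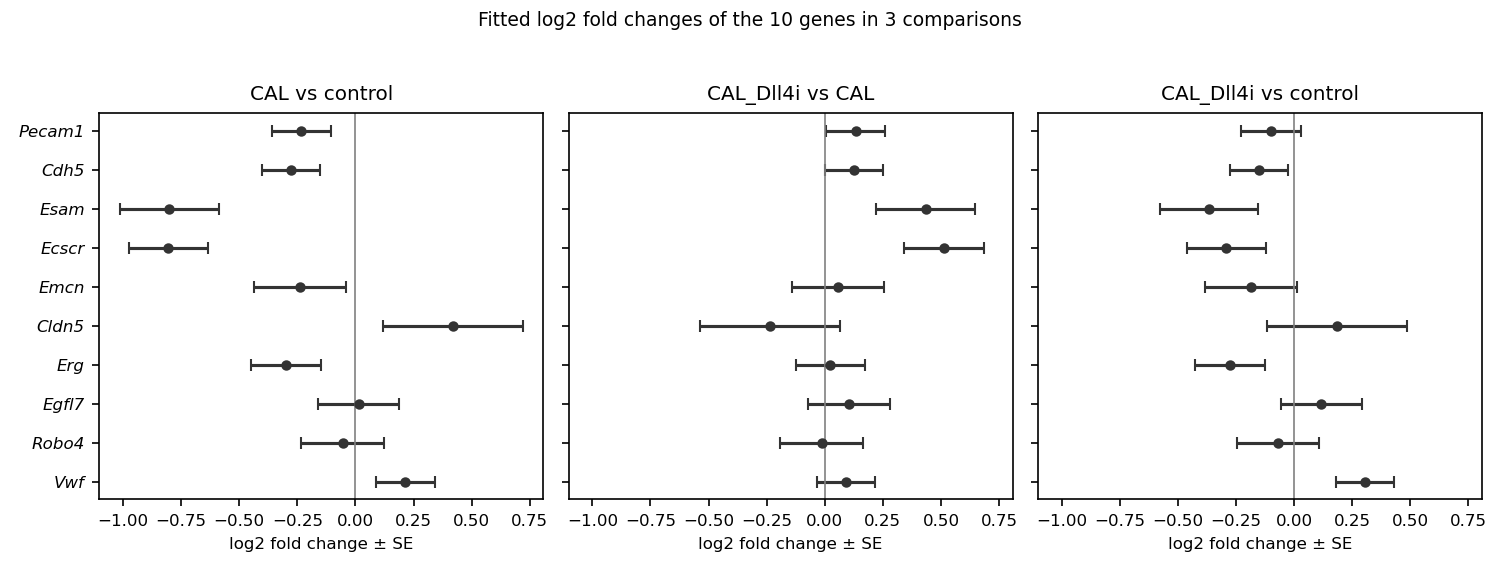
Fitted log2 fold changes (horizontal axes, points with SE bars) of the 10 genes in the 3 comparisons, from edgeR on all 12 libraries. In CAL against control Ecscr and Esam stand apart at -0.80 each, and in CAL_Dll4i against CAL the same genes have the largest positive estimates, 0.51 and 0.43; the comparisons share groups.

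The second comparison, CAL_Dll4i against CAL, asks what Dll4 inhibition changed in grafts that had received ASC. By edgeR, 0 of the 10 genes passed (0% of all genes were called in either direction), and 1 of the 10, Ecscr, was higher at an unadjusted p under 0.05, against 4.47% of all genes; 0 were lower, against 2.95%. No gene of the 10 had groups that did not overlap (1.58% of all genes did so, higher in CAL_Dll4i, and 1.76% lower). Ecscr went from a mean of 15.3 to 21.9 CPM, a log2 fold change of 0.51 ± 0.17 (unadjusted p = 0.011, adjusted p = 0.659). For Esam the means were 10.04 and 13.6 CPM and the estimate was 0.43 ± 0.21 (adjusted p = 0.687), or 0.69 without the libraries with muscle RNA (adjusted p = 0.461). The remaining estimates ran from -0.24 ± 0.30 for Cldn5 (adjusted p = 0.883) to 0.13 ± 0.13 for Pecam1 (adjusted p = 0.848). Pecam1 was at 0.27 without CAL replicate 1, 0.0328 without CAL replicate 3, 0.0707 without CAL_Dll4i replicate 1 and 0.36 without the muscle libraries. Cldn5 was at 0.0751 without CAL replicate 1, -0.43 without CAL replicate 3, -0.39 without CAL_Dll4i replicate 3 and 0.13 without the muscle libraries. DESeq2 called 0 of the 10 (0.0054% of its genes were lower and 0% higher), and voom 0 (0% in either direction).

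In CAL_Dll4i against control, 0 of the 10 genes passed (0% of all genes were called in either direction by edgeR). Of the 10, 1 was higher at an unadjusted p under 0.05, against 3.86% of all genes, and 0 were lower, against 3.06%. That gene was Vwf, at 0.30 ± 0.13 (unadjusted p = 0.033, adjusted p = 0.714). Its highest control library, at 67.5 CPM, and its lowest CAL_Dll4i library, at 67.1 CPM, met, so the groups overlapped as they did for all 10 genes (2.41% of all genes did not overlap and were higher, 2.35% lower). DESeq2 called 0 of the 10 (0.0594% of its genes were lower and 0.27% higher), and voom 0 (0% in either direction). Esam at -0.37 ± 0.21 and Ecscr at -0.29 ± 0.17 (both adjusted p = 0.729) did not pass. Esam was at -0.0932 without control replicate 3, and Ecscr at -0.19 without CAL_Dll4i replicate 3. CAL_Dll4i and CAL were each set against the same control libraries and against each other, so these 3 sets of estimates are not independent.

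Counted by sign alone, 7 of the 10 estimates were below 0 in CAL against control, where 51.6% of all genes were, and 3 were above 0, where 48.4% were, with a median of -0.24 for the 10 and -0.0067 for all genes. In CAL_Dll4i against CAL 8 of the 10 were above 0, against 51.3% of all genes, and 2 below, against 48.7%, with medians of 0.10 and 0.0039. In CAL_Dll4i against control 7 of the 10 were below 0, against 50.4% of all genes, and 3 above, against 49.6%, with medians of -0.13 and -0.0015. These counts turned on single libraries. Without control replicate 3, CAL against control gave 5 lower and 5 higher with a median of -0.09, and CAL_Dll4i against control gave 5 and 5 with a median of -0.01. Without CAL replicate 3, CAL_Dll4i against CAL gave 5 lower and 5 higher with a median of 0.0047, and CAL against control a median of -0.14. Without CAL replicate 4 the median of CAL_Dll4i against CAL was 0.04, without CAL_Dll4i replicate 1 it was 0.02, and without CAL replicate 1 it was 0.25. With CAL_Dll4i replicate 2 left out, CAL_Dll4i against control had a median of -0.08.

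Leaving out the 3 libraries with muscle RNA, which left 2 CAL and 3 CAL_Dll4i libraries, moved the counts the other way. All 10 genes were then lower in CAL than in control (52.7% of all genes were), with a median of -0.42. All 10 were higher in CAL_Dll4i than in CAL, where 49.5% of all genes were lower, with a median of 0.34. Both counts rest on the same 2 CAL libraries. In that setting edgeR called 0 of the 10 genes in any of the 3 comparisons. CAL replicates 3 and 4, the CAL libraries that remained, were the 2 libraries lowest in these genes.

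The highest libraries for these genes were spread over the groups, but the lowest were CAL libraries. The mean z-score of log2 CPM over the 10 genes was highest in control replicate 3 (1.104), CAL replicate 1 (0.83) and CAL_Dll4i replicate 1 (0.75), 1 library of each group. It was lowest in CAL replicates 3 (-1.31) and 4 (-0.97), and the other 7 libraries lay between -0.28 and 0.18. CAL replicate 1 held the highest level of 5 of the 10 genes (Pecam1, Cldn5, Egfl7, Robo4 and Vwf) and the lowest of Ecscr. Control replicate 3 held the highest level of 4 (Cdh5, Esam, Emcn and Erg) and the lowest of Vwf. CAL replicate 3 was among the 3 lowest libraries for 9 of the 10 genes, the exception being Ecscr. Summed over the 10 genes, the level ran from 282 CPM in CAL replicate 3 to 429 CPM in control replicate 3.

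**Figure D3:**
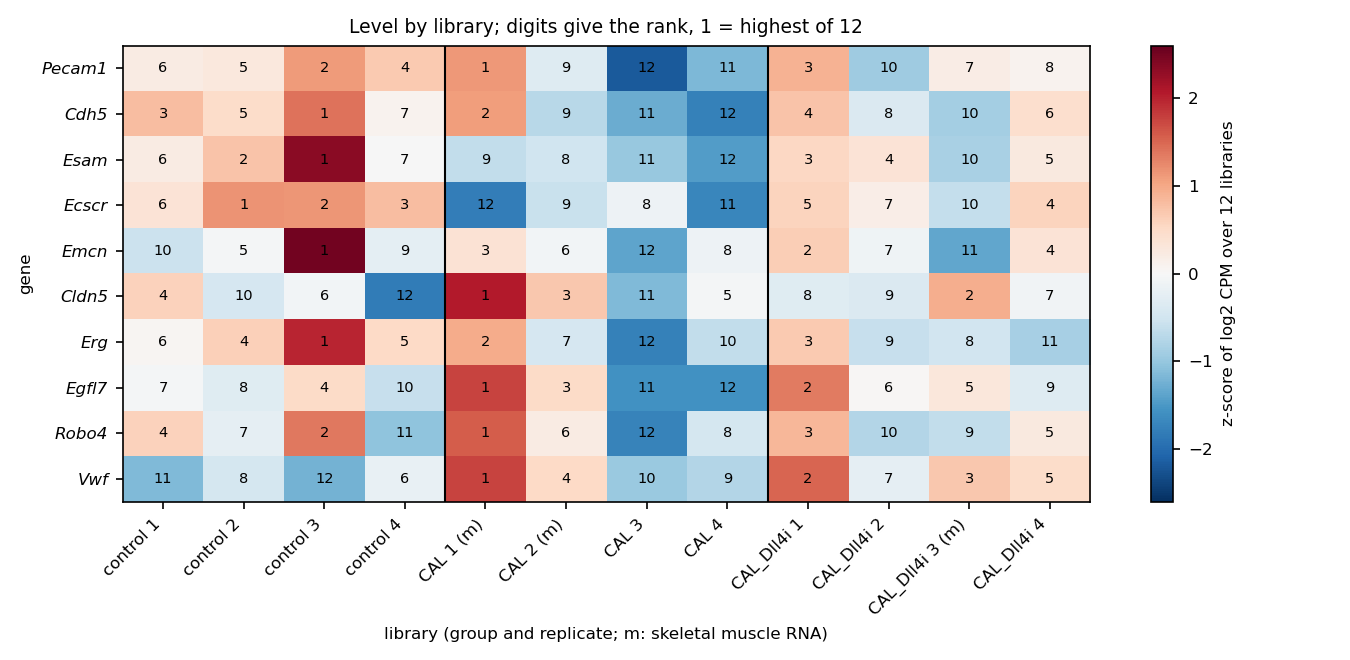
Level of each gene (rows) in each library (columns), coloured by the z-score of its log2 CPM over the 12 libraries, with its rank (1 = highest) printed; m marks libraries with skeletal muscle RNA. CAL 3 is low for 9 of the 10 genes, control 3 and CAL 1 hold the top rank for 4 and 5 genes, and Ecscr and Vwf depart from their columns.

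To see which genes followed the rest, each was set against the mean log2 CPM of the other 9 in the same library. For most of them the SD over the 12 libraries was smaller for this ratio than for the level itself. It was 0.09 against 0.21 for Cdh5, 0.11 against 0.21 for Pecam1 and 0.13 against 0.24 for Robo4. For Erg it was 0.14 against 0.24, for Egfl7 0.16 against 0.25 and for Emcn 0.20 against 0.29. The ratio also had the smaller SD for Esam, which followed less well, at 0.34 against 0.44. Ecscr (0.45 against 0.43), Cldn5 (0.47 against 0.46) and Vwf (0.27 against 0.22) were more variable relative to the other genes than on their own.

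Relative to the others, Esam was lower in all 4 CAL libraries than in any control, at -1.03 ± 0.19 against -0.43 ± 0.33 (log2, mean ± SD, n = 4). Vwf was higher in all 4 CAL libraries than in any control, at 2.12 ± 0.04 against 1.66 ± 0.30. Its CAL_Dll4i mean was 2.08 ± 0.11, and the CAL values, between 2.09 and 2.17, were tight with and without muscle RNA. Ecscr was at -0.38 ± 0.58 in CAL and 0.31 ± 0.19 in control but overlapped, since CAL replicate 3 stood at 0.33 and CAL replicate 1 at -1.08. Cldn5 was at -2.40 ± 0.41 in CAL and -3.05 ± 0.45 in control and overlapped too. These ratios were given no test, and they show unequal levels, not which gene moved. No share over all genes was worked out for them. The genes set against Vwf include Ecscr and Esam, and the CPM of Vwf itself overlapped between CAL and control.

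**Figure D4:**
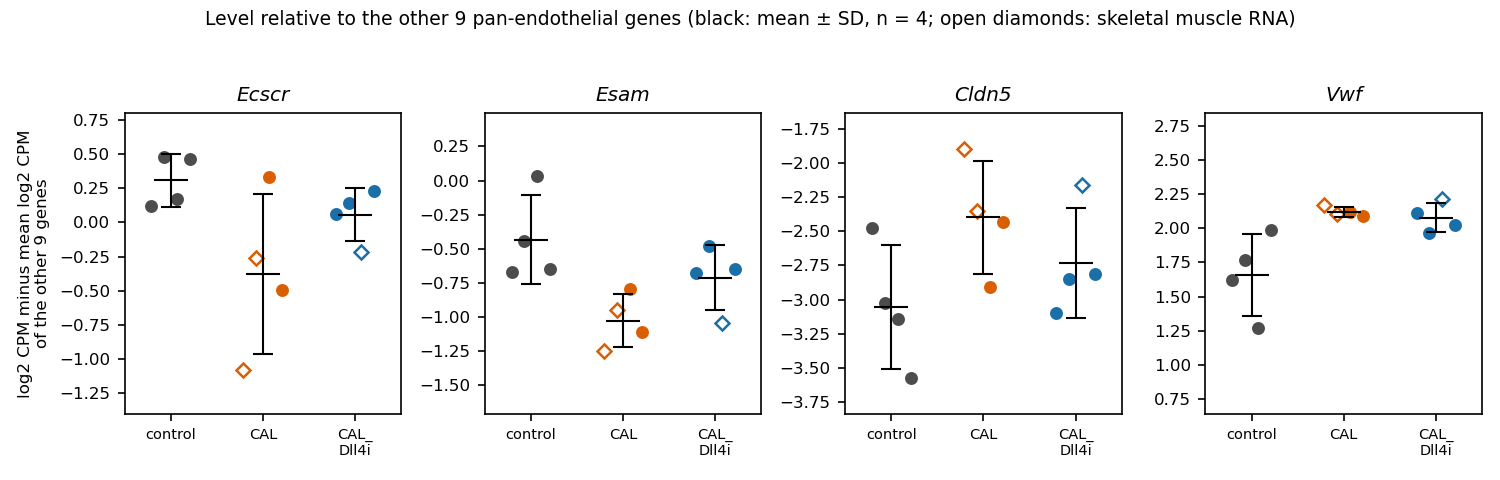
Log2 CPM of Ecscr, Esam, Cldn5 and Vwf minus the mean log2 CPM of the other 9 genes (vertical axes) in each library; black bars are the mean ± SD of 4 libraries and open diamonds are libraries with skeletal muscle RNA. The Esam ratio is lower and the Vwf ratio higher in all 4 CAL libraries than in all 4 control libraries. Ecscr and Cldn5 overlap. No share over all genes was worked out for these ratios.

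Other genes of the endothelial programme gave a mixed picture, and edgeR called none of those named here in CAL against control. The list of 20 other endothelial surface genes also holds genes of proteins that are not at the surface, Nos3 among them. Of its 20 estimates 13 were below 0, where 51.6% of all genes were, with a median of -0.09. The 3 with the smallest p were Cd93, a C-type lectin-like receptor (174 and 199 CPM in control and CAL, adjusted p = 0.288), Myct1 (3.29 and 2.43 CPM, adjusted p = 0.207) and Nos3, the endothelial nitric oxide synthase (3.63 and 5.99 CPM, adjusted p = 0.213). Nos3 was higher in every CAL library than in any control, and Myct1 lower. They were 1 of 20 in each direction, where 3.61% of all genes were higher without overlap and 3.75% lower. Of 15 tested endothelial transcription factors 7 were below 0 with a median of 0.0044, led by Elk3, an ETS factor related to Erg (71.0 and 58.9 CPM, adjusted p = 0.215). Lmo2, a cofactor of blood and endothelial transcription, was at 23.3 and 27.0 CPM (edgeR adjusted p = 0.303). It was higher in every CAL library than in any control, as 1 of the 15, and 0 of the 15 were lower without overlap. Ets2, another ETS factor, was at 32.5 and 24.3 CPM (edgeR adjusted p = 0.309).

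The 14 junction partners, the catenins, scaffolds and adhesion molecules that bind the junction proteins above, had 9 estimates below 0 and a median of -0.03. Members of one family differed: Jam2 had means of 11.7 CPM in control and 16.2 in CAL (log2 fold change 0.47 ± 0.12) and Jam3 at 15.3 and 10.7 (-0.51 ± 0.15). Their adjusted p-values were 0.166 and 0.195 by edgeR and 0.0155 and 0.044 by DESeq2. Jup, which encodes plakoglobin, was at 19.5 and 24.9 CPM, without overlap (edgeR adjusted p = 0.280). It was 1 of 14 to be higher without overlap, where 3.61% of all genes were, and 0 were lower, where 3.75% were.

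Vwf shares its storage granule or its haemostatic setting with 13 tested genes, 8 of them below 0 in CAL against control, with a median of -0.03. Angpt2, a Tie2 ligand kept in the same granules, had means of 19.9 CPM in control grafts and 11.3 in CAL grafts, a log2 fold change of -0.81 ± 0.13 without overlap (adjusted p = 0.0969 by edgeR, 2.7e-05 by DESeq2). Procr, the endothelial protein C receptor, was at 97.8 and 67.2 CPM, also without overlap (0.195 and 0.0335). These were 2 of the 13 genes to be lower without overlap, where 3.75% of all genes were, and 0 were higher, where 3.61% were. Plat, the tissue plasminogen activator, was at 30.1 and 21.3 CPM (edgeR adjusted p = 0.279). The values of Vwf itself were 62.1 and 72.0 CPM.

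By vessel type, the 10 arterial genes had the lowest median of the endothelial lists. Of these, 7 were below 0 in CAL against control, where 51.6% of all genes were, and 6 of them at an unadjusted p under 0.05, where 7.57% of all genes were, with a median of -0.46. Efnb2, an arterial ephrin, had group means of 9.37, 5.34 and 8.66 CPM in the order control, CAL, CAL_Dll4i (log2 fold change -0.81 ± 0.21 in CAL against control, edgeR adjusted p = 0.166). Unc5b, a netrin receptor, was at 26.6, 14.8 and 22.9 CPM (edgeR adjusted p = 0.189), and Dll4 itself at 5.78, 3.72 and 4.42 CPM (adjusted p = 0.132). All 3 were called by DESeq2 in CAL against control, at 0.0125, 0.0198 and 0.00314. In CAL_Dll4i against CAL all 10 arterial estimates were above 0, where 51.3% of all genes were, with a median of 0.26. Arterial genes summed to 253 CPM in control replicate 3, 166 to 185 in the other control libraries and 110 to 164 in CAL. Jag1 averaged 124 of the 197 CPM in control. The 9 tested capillary genes had 4 below 0 and a median of 0.09 in CAL against control, and the 8 venous genes 5 below 0 and a median of -0.13. Of 12 tested mural cell genes, which mark the pericytes and smooth muscle around endothelium, 8 were below 0 with a median of -0.17.

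Lymphatic endothelium is known to carry several of these genes, Pecam1 and Cdh5 among them. Lymphatic genes summed to 115 to 154 CPM in control, 83.0 to 187 in CAL and 146 to 203 in CAL_Dll4i libraries, and 7 of 7 were in the table. Prox1, the factor that defines lymphatic endothelium, lay between 0.585 and 1.44 CPM in control libraries, between 0.0739 and 5.17 in CAL libraries and between 1.96 and 5.53 in CAL_Dll4i libraries. Pdpn made up most of the sum, averaging 107 of 139 CPM over control libraries and 68.4 of 128 over CAL libraries. Its CAL against control estimate was -0.64, while the other 6 were above 0 and the list median was 0.70. Medians were 0.42 in CAL_Dll4i against CAL, with 7 of 7 above 0, and 1.13 in CAL_Dll4i against control, with 6 above. By edgeR 0 of the 7 were called in these comparisons. Within CAL the lymphatic sum was lowest in replicate 3, at 83.0 CPM, the library that was also lowest in the 10 genes. The part of lymphatic endothelium in the results was not tested.

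**Figure D5:**
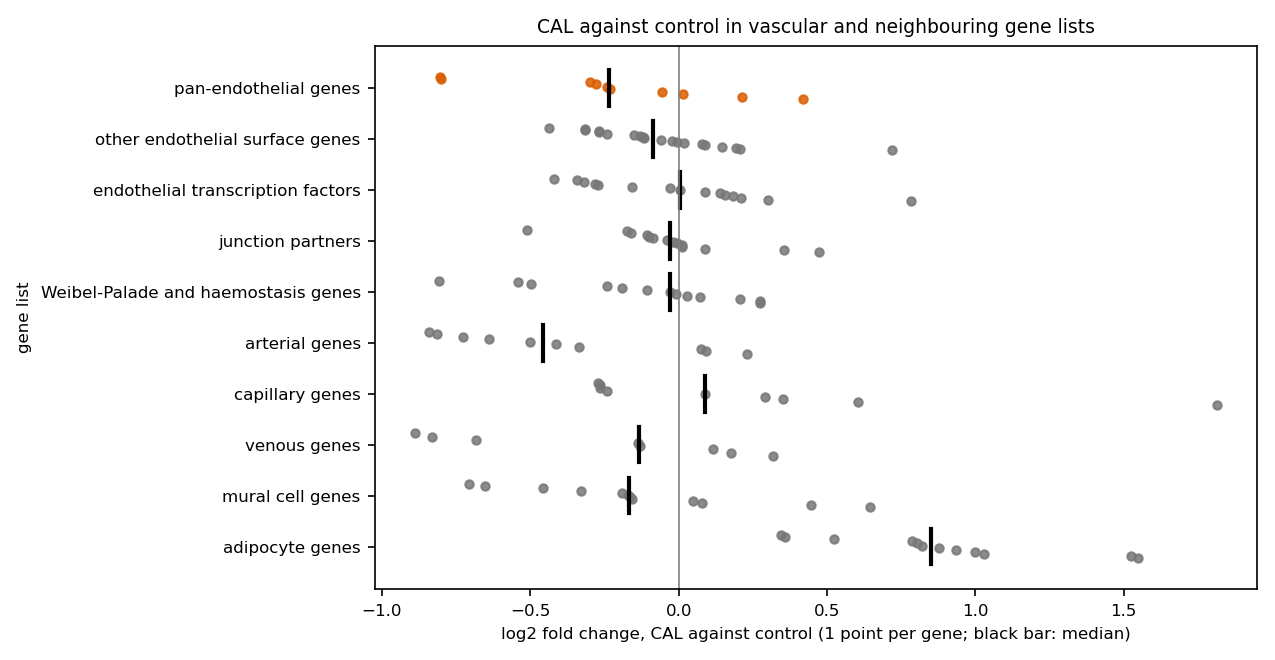
Log2 fold changes of CAL against control (horizontal axis) for each tested gene of the 10 pan-endothelial genes and 9 other lists; points are genes and black bars are list medians. The pan-endothelial median is -0.24, the arterial median -0.46 and the adipocyte median 0.85, with genes on both sides of 0 in every list but the adipocyte one.

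Other cells of the graft, some of which carry some of these RNAs, were read the same way. Of 12 platelet genes 9 were tested, and they summed to 95.02 to 125 CPM in control, 79.8 to 100 in CAL and 94.02 to 114 in CAL_Dll4i libraries; most of that came from Itgb3 and Pf4, and Tubb1, a platelet tubulin, was at most 1.72 CPM. Leukocyte genes, 12 of 12 tested, summed to 3020 to 3267, 3075 to 3514 and 3074 to 3351 CPM. Adipocyte genes summed to 956 to 2105 CPM in control, 2152 to 3149 in CAL and 1599 to 2114 in CAL_Dll4i, and 12 of 12 estimates were above 0 in CAL against control, with a median of 0.85. The CAL sums of adipocyte genes were above all control sums, while Ecscr and Esam were below all control values. The other 8 of the 10 genes overlapped between CAL and control. The highest adipocyte sums in CAL were 3149 CPM in replicate 4, with a mean z-score of -0.97 over the 10 genes, and 2674 CPM in replicate 1, with 0.83. Red cell genes, 6 of 6 tested, summed to 320 to 1397 CPM in control libraries, 260 to 905 in CAL and 334 to 533 in CAL_Dll4i. Their sum was highest in control replicate 3 and lowest in CAL replicate 3, the libraries that were also highest and lowest in the 10 genes by mean z-score. The orders parted elsewhere. CAL_Dll4i replicate 1 had a mean z-score of 0.75 with a red cell sum of 334 CPM, and CAL replicate 4 had -0.97 with 863 CPM. Fibroblast genes, 8 of 8 tested, summed to 6465 to 8275 CPM in control libraries, 6331 to 8335 in CAL and 8025 to 9041 in CAL_Dll4i. Whether platelets, leukocytes, red cells, fibroblasts or the share of adipocyte RNA had a part in the levels of the 10 genes was not tested.

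The genes outside the 10 whose levels ran most alike with their mean z-score over the 12 libraries, among 15098 genes with a mean of at least 1 CPM, were Tjp1, Tie1, Adgrl4, Rasip1, Gsta2 and Dipk2b. Pearson's r was 0.887 for Tjp1, a tight junction scaffold, and Spearman's rho 0.867. For Tie1, an endothelial receptor tyrosine kinase, they were 0.884 and 0.804, and for Adgrl4, an endothelial adhesion receptor, 0.851 and 0.839. Rasip1 (0.842 and 0.608), Gsta2 (0.841 and 0.678) and Dipk2b (0.840 and 0.664) followed. With the 2 libraries farthest from the median, CAL replicate 3 and control replicate 3, left out, r was 0.732 for Tjp1, 0.850 for Tie1, 0.669 for Adgrl4, 0.786 for Rasip1, 0.674 for Gsta2 and 0.745 for Dipk2b. Likeness was used to choose these genes, so the values are a description over libraries that share their normalisation. In CAL against control the 6 had edgeR adjusted p-values from 0.340 (Gsta2) to 0.994 (Rasip1).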

How the data were processed

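RNA extracted with Trizol from 12 fat graft libraries was sequenced after exon capture (SureSelectXT RNA Direct kit), per the labels' protocols. The submitters' processing notes name HISAT2, StringTie and the build mm10, without versions. The authors deposited 3 values per gene and library: an estimated count, in whole numbers not scaled between libraries, an FPKM and a TPM. The deposited TPM, scaled by the authors for transcript length, served to order the genes by level, and the deposited FPKM to repeat that order. The lowest count among the deposited values is 1, so no gene there is at 0 in any library. Whether genes at 0 were removed before deposit is not known.

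The 10 genes, the marker lists and the tests were chosen with earlier results of these data known. The estimated counts deposited by the authors, already whole, were tested in R 4.3.3 with edgeR 4.0.16: TMM scaling, filterByExpr at its defaults (18551 of 19547 genes kept), a robust quasi-likelihood fit with 1 coefficient per group over all 12 libraries, and Benjamini-Hochberg adjustment over all genes tested. A gene was called at an adjusted p under 0.05. DESeq2 1.42.0, limma 3.58.1 (voom with sample weights), other scalings and filters, fits restricted to both groups of a comparison, a replicate block and each library left out in turn were alternatives. Leaving out libraries with over 100 CPM of muscle genes was chosen after seeing the data. The test code was tested on simulated data. No 2 libraries of a group agreed within counting noise: the smallest mean chi-square per gene of the 18 pairs was 39.3, where counting noise alone gives about 1. Totals of 55883051 to 70804141 counts set the counting precision. All 10 genes are named. The rule also names the 3 genes of smallest p in CAL against control of each other list and the 6 genes most alike; for the capillary, venous, lymphatic, mural and non-endothelial lists the text gives counts, sums or single examples in place of those 3. Plots were made in Python 3.11.15 with matplotlib 3.10.9.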

Additional observations from a re-analysis of the deposited data

Results flagged for a closer look

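In 6 of 81 groups of 4 libraries looked at, 1 library stood apart from its group by Dixon's criterion (the gap to its neighbour over the group's range); chance alone gives about 1 in 20. Emcn stood at 47.5 CPM in control replicate 3, with the next control library at 28.5 CPM and a gap of 0.873 of the range. The same library held 949 CPM of the other endothelial surface genes, with the next at 803 CPM (0.905). Arterial genes summed to 136 CPM in CAL_Dll4i replicate 3, with the next of that group at 199.7 CPM (0.899). Skeletal muscle genes summed to 659 CPM in the same CAL_Dll4i library, with the next at 17.5 CPM (0.988). Platelet genes summed to 100.3 CPM in CAL replicate 2, with the next at 83.1 CPM (0.837). Keratinocyte genes summed to 77.3 CPM in CAL replicate 3, the library lowest in the 10 genes, with the next at 9.69 CPM (0.938).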

How the results depend on the processing

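edgeR called 0 of the 10 genes under each of its settings in all 3 comparisons, and Ecscr and Esam were lower in CAL than in control under all 21 alternatives run, from -0.95 to -0.70 and from -0.94 to -0.53. In CAL against control DESeq2 called 2 of the 10 and voom 1. Over all genes the calls there were 1 by edgeR, 616 by DESeq2, 88 by voom, 0 with only the 2 groups compared, 0 without the libraries with muscle RNA, and 0 (without CAL replicate 1) to 6 (without control replicate 1) with 1 library left out. In CAL_Dll4i against CAL DESeq2 called 1 gene and in CAL_Dll4i against control 61, where edgeR called 0, with 0 of the 10 among them. The median of the 10 in CAL_Dll4i against CAL was 0.34 without the muscle libraries.

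None of the single-gene estimates that changed sign had passed edgeR's test; they include Cldn5, which has the largest positive estimate of the 10 in CAL against control. In CAL against control, without the muscle libraries, Cldn5 was at -0.10, Egfl7 at -0.37 and Vwf at -0.0257; Egfl7 was at -0.0155 under voom. In CAL_Dll4i against CAL Cldn5 was at 0.13 and Robo4 at 0.30 without the muscle libraries, and Robo4 at 0.0593 under voom. In CAL_Dll4i against control Emcn was at 0.00698 and Robo4 at 0.0380 under voom. With 1 library left out, CAL against control ran from -0.33 to 0.0072 for Emcn, -0.17 to 0.12 for Egfl7 and -0.21 to 0.0646 for Robo4. CAL_Dll4i against CAL ran from -0.0375 to 0.16 for Emcn, -0.43 to 0.0751 for Cldn5, -0.0727 to 0.15 for Erg, -0.0031 to 0.29 for Egfl7 and -0.13 to 0.14 for Robo4. CAL_Dll4i against control ran from -0.28 to 0.0630 for Emcn and -0.16 to 0.0379 for Robo4. The cause of these changes was not tested.

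The libraries share replicate numbers, which the labels do not tie to a batch. Same-numbered libraries correlated at -0.37 to 0.14 in their deviations from group means, 2 of 12 pairs exceeded 0.1, and 0 of 12 libraries correlated best with their own number. With the replicate number as a block edgeR called 0 of the 10, with Ecscr at -0.81 (adjusted p = 0.228), Esam at -0.78 (adjusted p = 0.275) and Egfl7 at -0.0218 in CAL against control, and 1 gene over all genes there.

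With 4 libraries a group and a biological coefficient of variation of 0.237, Cldn5, at 150 to 417 counts a library, had the widest standard error of the 10.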
